A study of Mus musculus with 12 samples.

Results

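The genes described are Camk2n1, Hnrnpab, Mreg, Fndc10, Sdk2 and Sfmbt1, taken by symbol from a deposited list of mouse islet RNA regions whose N6-methyladenosine (m6A) signal differed between genotypes. They hold 9 of the 1233 listed regions and were picked because, apart from Mafa, they were the genes with a region whose input RNA was lower in the knockout. The input contrast therefore chose the members, and its values are given as a description. By edgeR's quasi-likelihood test, 8 regions of the list had lower input, which is 0.649% of all regions tested. Of these 8, 2 lie in Mafa and 6 in the 6 genes. The remaining 3 regions, in Camk2n1, Mreg and Sfmbt1, did not have a called input change, so that the name "genes whose input RNA fell" rests on 1 called region of each gene, and a fall at the other 3 regions was not shown.

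Islets came from C57BL/6 mice aged 8 weeks on normal chow. Controls were Mettl3 flox/flox mice, and knockouts were beta-Mettl3-KO mice (Mettl3 flox/flox RIP-Cre), so both genotypes carry the floxed alleles and only the knockouts carry Cre. The insulin promoter of RIP-Cre directs recombination to β-cells, and the other cells of the islet keep Mettl3. The 3 pools of each genotype hold RNA from 9 control or 12 knockout animals in all, and each gave an immunoprecipitated (IP) library made with an m6A antibody and an input library of RNA that was not immunoprecipitated. Mettl3 itself has no value below, since it was not analysed here, and the genotypes rest on the labels alone.

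METTL3 is the enzyme that methylates adenosine in mRNA, mostly in the sequence context DRACH and often near stop codons and in 3′UTRs. Proteins that read m6A affect the splicing, export, translation and decay of the marked RNA. In a MeRIP experiment the input library follows the abundance of an RNA region, the IP library follows abundance and methylation together, and their quotient is used as the measure of enrichment. A lower input with an unchanged IP therefore raises the quotient, while equal falls of input and IP leave it as it was.

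Total reads ranged from 16832779 to 20937525 in input and from 17082320 to 22257803 in IP libraries. Control pool 1 stood apart, with a median IP over input of 5.23 over all listed regions against 8.09 and 9.27 in control pools 2 and 3, and 3.42 to 4.47 in the knockout pools. Of 10 β-cell markers 4 were in the list (Mafa, Nkx6-1, Slc30a8 and Ucn3), and their summed input was 486 to 534 RPM (reads of the region scaled to the library's total) in control and 249 to 309 RPM in knockout pools. Mafa carried most of this difference: without it the other 3 genes summed to 313 to 327 RPM in control and 229 to 256 RPM in knockout pools, with log2 changes of -0.35 to -0.40 that did not pass the test. Ins1 and Ins2 are not among the listed regions, so the labelled tissue could be checked only at those 4 genes. Of 8 endothelial markers 4 were listed, with a summed input of 77.8 to 84.6 RPM in control and 42.4 to 84.2 RPM in knockout pools. Stromal, immune and ductal lists had 1 listed gene each, and the α-, δ-, PP-, acinar and neuronal lists had none. The part of cell composition in the results below was not tested. In RNA of whole islets, fewer cells of a type and less RNA per cell cannot be told apart.

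Most of the regions lay where m6A is usually found. On GENCODE M21 transcripts (GRCm38), 8 of the 9 regions could be placed, and 7 of these had their midpoint in a 3′UTR, against 49.1% of the 1115 listed regions that could be placed. The last coding base lay inside 4 of the 8, in Camk2n1 region 1, Mreg region 1, Fndc10 and Sfmbt1 region 2, against 53.2% of 1020 regions in coding transcripts. Regions are numbered from the 5′ end of the gene. The other 4 placed regions were Hnrnpab, which lies in the coding sequence close to the start of the transcript, and 3 regions farther along the 3′UTR, with midpoints 853 bases past the last coding base at Mreg region 2, 1331 at Sdk2 and 1668 at Camk2n1 region 2. Sfmbt1 region 1 could not be placed, because it joins pieces of the first exons of 2 transcripts, Sfmbt1-201 and Sfmbt1-206. No other annotated gene overlapped any of these regions on either strand, and no transcript of another gene matched those that could be placed at 85% identity or more.

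The sequences below are shown so that the m6A context of each region can be read beside its values. DRACH (D is A, G or T, R is A or G, H is A, C or T) was searched on the transcript strand. The 5 capitals mark the DRACH nearest to the midpoint of the region, within 21 bases of the GENCODE M21 transcript on GRCm38, 5′ to 3′, with the methylatable A in the centre.
Camk2n1 region 1, chr4:138456842-138456862, plus strand: acagttacTGACAaaaagcac
Camk2n1 region 2, chr4:138458440-138458460, plus strand: cggaactgGAACTtctgtaaa
Hnrnpab, chr11:51606497-51606517, minus strand: ccgagaacGGACAcgaggccg
Mreg region 1, chr1:72160723-72160743, minus strand: cttcctcaGGACCttggccta
Mreg region 2, chr1:72160012-72160032, minus strand: gtgtatgcTGACAgaggtcgc
Fndc10, chr4:155695475-155695495, plus strand: tctggcaaAAACCactggcac
Sdk2, chr11:113779467-113779487, minus strand: acgcagggAGACTgcactcat
Sfmbt1 region 2, chr14:30818003-30818023, plus strand: gaaagcaaAAACAgcacaaaa
Of the 8 placed regions, 7 held a DRACH in the 100 bases around their midpoint, against 93.5% of the listed regions that could be placed. The exception was Camk2n1 region 1, where the nearest DRACH lies 50 bases before the midpoint. GGAC, which makes a DRACH when A, C or T follows, lay in the same window of 5 of the 8, against 43.4%. A match shows letters only and does not locate a methylated base.

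Camk2n1 (ENSMUSG00000046447) encodes a small inhibitor of the calcium- and calmodulin-dependent kinase CaMKII. Region 1 (chromosome 4, 138455268 to 138457171) has 2 blocks that join into 538 bases of the transcript around the stop codon. Its input was 37.6, 41.0 and 33.2 RPM in control pools 1, 2 and 3 and 19.6, 15.5 and 18.3 RPM in the knockout pools. The 2 groups lay far apart, and these values rest on 324 to 795 reads per library, the deepest input of the 9 regions. The mean went from 37.3 ± 3.89 to 17.8 ± 2.12 RPM (SD, n = 3), a log2 change of -1.07 (SE 0.27) whose call was lost when knockout pool 2 was left out. IP was 205, 133 and 131 RPM in control and 132, 126 and 117 RPM in knockout pools, so that the groups overlapped and control pool 1 was the highest. The IP log2 change was -0.33 (SE 0.26, edgeR adjusted p = 0.23). IP over input was 5.45, 3.26 and 3.95 in control and 6.71, 8.14 and 6.37 in knockout pools, higher in every knockout pool. The edgeR log2 change of enrichment, 0.74 (SE 0.38), was not called. The change was called higher with TMM (1.56, edgeR adjusted p = 0.034) and with DESeq2 (1.57, DESeq2 adjusted p = 0.0047). Without control pool 1 it was also called (0.97, edgeR adjusted p = 0.0040). TMM and DESeq2 moved the median enrichment change of all regions by 0.96 and 0.97. The input values that chose this region enter the contrast, so nothing is read from these calls. The authors' deposited table holds 2 columns of log2 fold change of enrichment, from its differential test and from the genotype comparison, here 1.26 and 0.745.

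Further along the 3′UTR of the same RNA, Camk2n1 region 2 (chromosome 4, 138458244 to 138458662) had other values. Input counts there were only 19, 39 and 15 in control and 22, 27 and 45 in knockout libraries. The ratio of knockout to control input was 1.22 (exact 95% interval 0.890 to 1.68, counting error of independent reads only). The input log2 change was 0.32 (SE 0.46), and the counts are too low to show a small change in either direction. IP went from 8.31, 11.5 and 15.9 RPM in control to 6.25, 4.57 and 7.33 RPM in knockout pools, without overlap. The IP log2 change was -0.98 (SE 0.40, edgeR adjusted p = 0.029). The call was lost without any pool other than control pool 1 (adjusted p up to 0.88 over all settings). IP over input was 8.23, 5.70 and 17.9 in control and 5.34, 3.54 and 2.98 in knockout pools. Its enrichment log2 change of -1.29 (SE 0.61) was not called. Input reads of region 1 outnumbered those of region 2 by 20.4-fold to 37.3-fold in control and by 7.44-fold to 16.8-fold in knockout pools, a difference between stretches of the same RNA that was not tested.

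Hnrnpab (ENSMUSG00000020358) encodes a nuclear RNA-binding protein of the hnRNP family. Its region (chromosome 11, 51606408 to 51606668) spans 181 transcript bases across the first splice junction. Input was 7.92, 10.98 and 12.1 RPM in control and 6.70, 3.96 and 3.12 RPM in knockout pools (57 to 213 reads per library), without overlap. The mean went from 10.3 ± 2.17 to 4.59 ± 1.87 RPM (SD, n = 3), a log2 change of -1.17 (SE 0.34). Control pool 1 and knockout pool 1 lay next to each other, and the input call was lost under TMM and DESeq2 scaling and when any pool numbered 2 or 3 was left out. IP was 25.7, 4.81 and 9.07 RPM in control and 11.5, 12.4 and 14.9 RPM in knockout pools. Control pool 1 alone lay above all knockouts, and the other 2 controls lay below them. The IP log2 change was -0.03 (SE 0.33, edgeR adjusted p = 0.94), and without control pool 1 it was 0.90 (edgeR adjusted p = 0.014). Its IP over input was 3.24, 0.438 and 0.748 in control and 1.71, 3.12 and 4.79 in knockout pools. In control pools 2 and 3 IP RPM was thus below input RPM, although the region is listed as a peak, with a fold enrichment of 1.28 and values of 1.72 and 1.12 in the 2 log2 fold change columns of the authors' deposited table.

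Sfmbt1 (ENSMUSG00000006527) encodes a chromatin protein with MBT domains, related to Polycomb proteins. Region 1 (chromosome 14, 30715632 to 30716547) lies at the 5′ end of the gene. Its input counts were 19, 59 and 13 in control and 11, 1 and 1 in knockout libraries. The 2 counts of 1 are the lowest values the list holds, since no count in it is 0, and control pool 2 held most of the control reads. The ratio of knockout to control input was 0.136 (exact 95% interval 0.0695 to 0.244, counting error of independent reads only). These same counts chose the region, so the interval describes them and gives no support for a fall. The fitted log2 change was -2.81 (SE 0.73), the lowest of the 1233. The input call was lost with TMM scaling and without control pool 2 or knockout pool 2 or 3. IP counts were 64, 41 and 11 in control and 57, 37 and 21 in knockout libraries, with fully overlapping groups. The IP log2 change was 0.15 (SE 0.58, edgeR adjusted p = 0.80). IP over input was 3.44, 0.606 and 0.698 in control and 5.34, 45.4 and 21.3 in knockout pools. The 45.4 and 21.3 of knockout pools 2 and 3 have an input count of 1 as their denominator. Since no count is 0, a floor may have been added before deposit and a 1 may stand for no read, so neither value can be read as a level. The same counts lie behind the 4.6 and 3.92 that the authors' deposited table gives as log2 fold changes.

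Sfmbt1 region 2 (chromosome 14, 30816852 to 30818373), at the stop codon of the same gene, had much deeper counts and no called input change. Input was 5.10, 6.85 and 5.70 RPM in control and 6.43, 5.54 and 2.79 RPM in knockout pools (51 to 133 reads per library), with a log2 change of -0.26 (SE 0.31). Only knockout pool 3 lay below the controls. IP went from 35.7, 56.1 and 59.7 RPM to 33.1, 20.4 and 21.5 RPM, without overlap, although control pool 1 and knockout pool 1 were close. The IP fell by 1.01 on the log2 scale (SE 0.30, edgeR adjusted p = 0.0035), and the call was lost without knockout pool 2, with TMM (log2 change -0.28, adjusted p = 0.63) and with DESeq2 (-0.27, adjusted p = 0.63). IP over input was 6.99, 8.18 and 10.5 in control and 5.15, 3.69 and 7.73 in knockout pools.

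Mreg (ENSMUSG00000039395) encodes melanoregulin, a protein known in mouse pigment cells for its part in the transport of organelles. Its regions lie next to each other at the stop codon and in the 3′UTR, and Mreg showed the clearest loss of IP signal among the 6 genes. At region 1 (chromosome 1, 72160420 to 72161013) input was 8.45, 9.28 and 5.82 RPM in control and 4.57, 3.25 and 3.66 RPM in knockout pools (67 to 180 reads per library), without overlap. The mean went from 7.85 ± 1.80 to 3.83 ± 0.677 RPM (SD, n = 3), a log2 change of -1.04 (SE 0.32). This input call was lost without control pool 2 or knockout pool 2 or 3. IP was 36.7, 47.6 and 47.8 RPM in control and 13.4, 7.26 and 9.39 RPM in knockout pools, which is a loss of 77.3% of the mean. The IP fell by 2.14 on the log2 scale (SE 0.31, edgeR adjusted p = 4.9e-09). IP over input was 4.35, 5.13 and 8.22 in control and 2.94, 2.24 and 2.56 in knockout pools, an enrichment log2 change of -1.10. With TMM the changes of IP and input were closer, at -1.44 and -1.25, and that of enrichment was -0.18 (-0.17 with DESeq2). The enrichment call was lost with both scalings and when any pool numbered 2 or 3 was left out.

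Mreg region 2 (chromosome 1, 72159857 to 72160213) had input of 4.52, 1.60 and 3.51 RPM in control and 2.39, 1.67 and 2.68 RPM in knockout pools (31 to 85 reads per library). The groups overlapped, with control pool 2 the lowest of all 6, and the log2 change was -0.51 (SE 0.42). IP was 12.3, 17.7 and 12.5 RPM in control and 4.93, 2.75 and 2.61 RPM in knockout pools, without overlap. The IP fell by 2.04 on the log2 scale (SE 0.41, edgeR adjusted p = 4.7e-05). The IP log2 changes of regions 1 and 2 ranked 3 and 4 from the lowest among the 1233 regions, and their calls were kept under every setting run, with adjusted p of at most 0.00078 and 0.030. At region 2 IP over input was 2.72, 11.1 and 3.57 in control and 2.06, 1.65 and 0.974 in knockout pools. Its enrichment log2 change was -1.53 (SE 0.58). That call was lost with TMM, with DESeq2 and when any pool numbered 2 or 3 was left out.

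Fndc10 and Sdk2 encode membrane proteins with fibronectin type III domains. For Fndc10 (ENSMUSG00000074738, chromosome 4, 155695144 to 155695827) input was 7.23, 9.79 and 8.61 RPM in control and 5.90, 4.11 and 3.23 RPM in knockout pools (59 to 190 reads per library). The groups did not overlap, but knockout pool 1 lay close to control pool 1. The mean went from 8.54 ± 1.28 to 4.41 ± 1.36 RPM (SD, n = 3), a log2 change of -0.95 (SE 0.31), and the call was lost when any pool numbered 2 or 3 was left out. IP was 34.8, 39.9 and 60.0 RPM in control and 21.9, 18.4 and 21.2 RPM in knockout pools. The IP fell by 1.13 on the log2 scale (SE 0.30, edgeR adjusted p = 0.0013). This call was lost with TMM (log2 change -0.39, adjusted p = 0.40) and DESeq2 (-0.38, adjusted p = 0.39), where the input change was -1.17. IP over input overlapped, at 4.82, 4.08 and 6.97 in control and 3.70, 4.49 and 6.56 in knockout pools. Its enrichment log2 change was -0.18 (SE 0.43), and 0.78 with TMM scaling. For this region the authors' deposited table gives -0.955 in its differential test and -0.105 in its other column.

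Sdk2 (ENSMUSG00000041592) encodes a sidekick adhesion molecule of the immunoglobulin superfamily, known in mouse retina for guiding synaptic partners. Its region (chromosome 11, 113779342 to 113779582) lies deep in the 3′UTR. Input counts were 27, 37 and 22 in control and 8, 15 and 1 in knockout libraries, low in every library and without overlap. The ratio of knockout to control input was 0.265 (exact 95% interval 0.161 to 0.420, counting error of independent reads only). As the region was chosen on these counts, the interval is a description and gives no support for a fall. The fitted log2 change was -1.92 (SE 0.65). This input call was lost with TMM scaling and without any pool other than control pool 1. IP counts were 82, 11 and 48 in control and 78, 42 and 43 in knockout libraries, and the groups overlapped fully. The IP log2 change was 0.33 (SE 0.54, edgeR adjusted p = 0.55). IP over input was 3.11, 0.259 and 1.80 in control and 10.05, 3.43 and 43.7 in knockout pools. The last of these divides by an input count of 1, which also enters the 2.63 and 3.46 that the authors' deposited table gives as log2 fold changes.

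**Figure D1:**
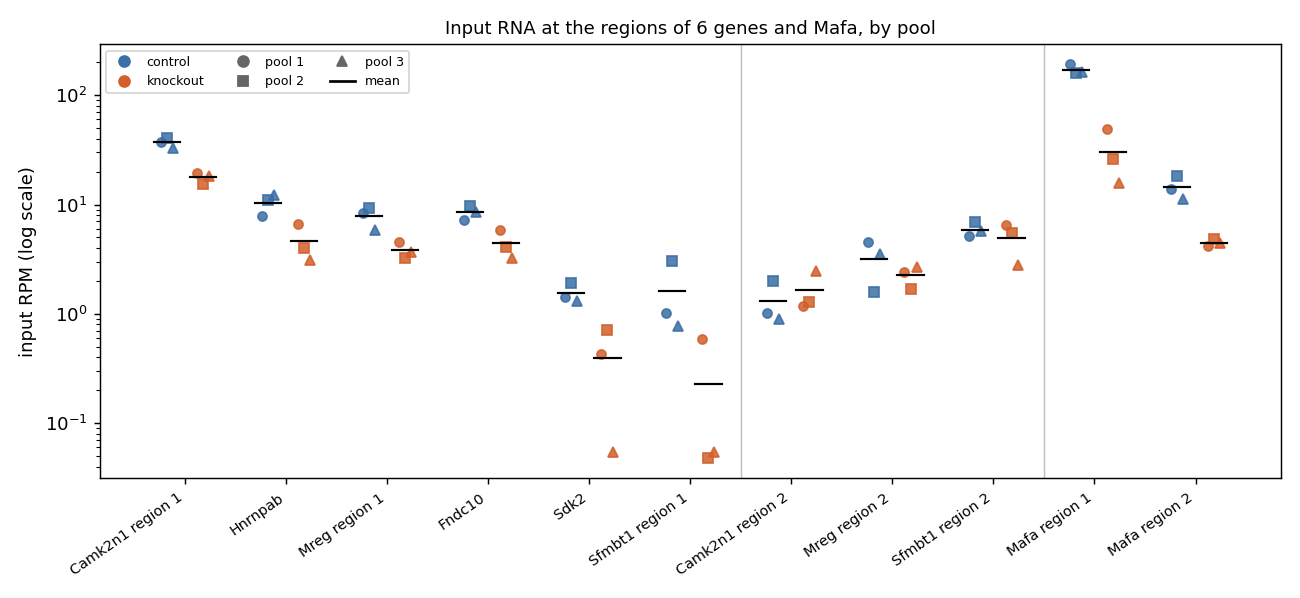
Input RPM (log axis) at the 9 regions of the 6 genes and the 2 Mafa regions. Colours give the genotype, marker shapes the pool and bars the mean of 3 pools, and the 6 regions on the left do not overlap between genotypes while the 3 in the middle do. The lowest triangles and square, at Sdk2 and Sfmbt1 region 1, are counts of 1.

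Taking the 9 regions as a set, input was lower in every knockout pool than in every control pool at 6, where 4.79% of all listed regions show this. These are the 6 that chose the genes, so nothing is read from the count. The members' median input log2 change was -1.04, against 0.22 over all 1233 regions. Threshold values were an adjusted p of 0.048 for Sdk2 and 0.043 for Fndc10 just inside, and 0.073 for Col6a6, 0.083 for Adora1 and 0.084 for Morf4l1 just outside. Col6a6, a collagen chain, had an input log2 change of -0.95, the adenosine receptor gene Adora1 -0.89 and the chromatin gene Morf4l1 -1.86. The Morf4l1 value rests on low input counts, 15 to 23 in control and 3 to 7 in knockout libraries. With TMM scaling, which moved the median input change of all regions by -0.22, 34 regions had lower input, 3 of them members. With DESeq2 58 had lower input, 5 of them members. Without knockout pool 2 no member region had a called input fall, and without control pool 2 or knockout pool 3 only 1 had.

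The IP contrast did not choose these genes, but the IP libraries entered the model that called the input changes and its estimate of spread. With the input libraries alone 19 regions had lower input, 6 of them members. IP and input libraries come from the same pools, and the list was selected by the authors for a changed enrichment. The IP fell at 5 of the 9 regions, against 64.8% of all regions tested, so the members' share is near the background. Their median IP log2 change was -0.98, against -0.76 over all regions. At 5 regions all knockout pools lay below all control pools, where 46.4% of listed regions do so. Among the 6 regions with lower input, IP fell at 2, Mreg region 1 and Fndc10, and the IP log2 changes of the other 4 lay between -0.33 and 0.33. Among the 3 regions without a called input change, IP fell at 3. TMM scaling within the IP libraries moved the median IP change of all regions by 0.75, and left the calls of the 2 Mreg regions only, with 23 IP falls over all regions.

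**Figure D2:**
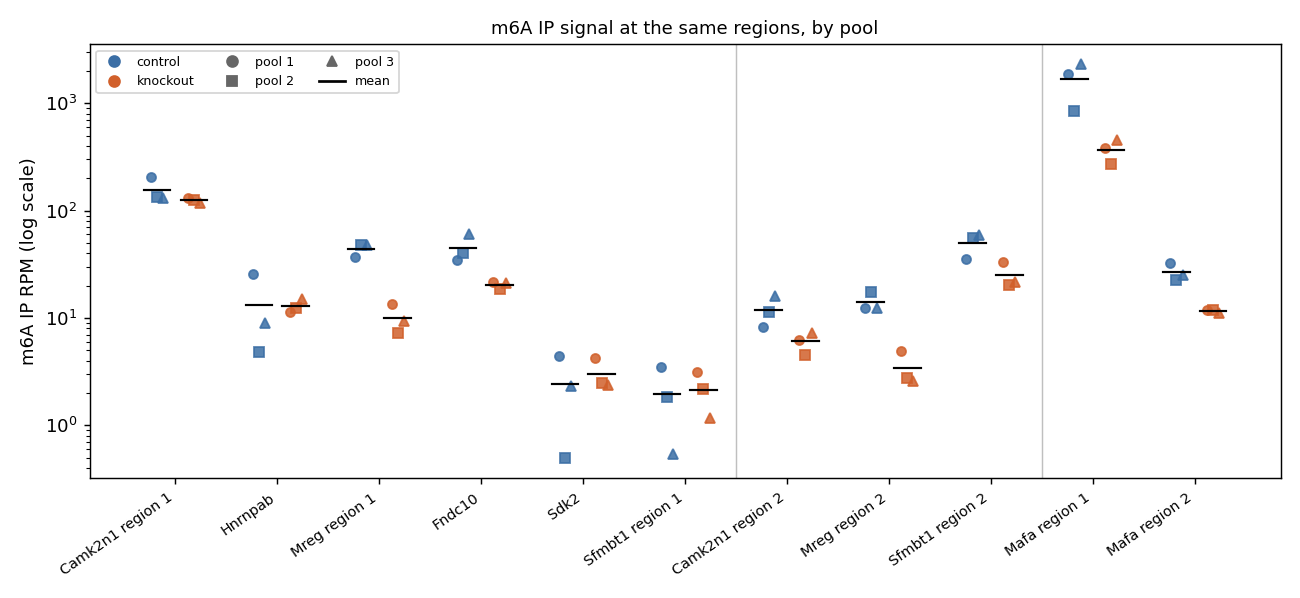
IP RPM (log axis) at the same regions, with colours for genotype, shapes for pool and bars for the mean of 3 pools. The knockout points lie below all control points at Mreg regions 1 and 2, Fndc10, Camk2n1 region 2, Sfmbt1 region 2 and both Mafa regions. They overlap the control points at Camk2n1 region 1, Hnrnpab, Sdk2 and Sfmbt1 region 1.

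Enrichment shares the input libraries that chose the genes, so its counts are a description from which nothing is read. Of the 6 regions with lower input, the authors' deposited table lists 4 as higher in the knockout and 2 as lower, and it lists the other 3 regions as lower. Of all 1233 listed regions, 88 are listed as higher. By edgeR 3 of the 9 regions had higher enrichment (Hnrnpab, Sdk2 and Sfmbt1 region 1), where 2.27% of all regions did, and 2 had lower enrichment (both of Mreg), where 55.6% did. Pools did not overlap upwards at 3 of the 9 (Camk2n1 region 1, Sdk2 and Sfmbt1 region 1), against 3% of all regions, and downwards at 3 (Camk2n1 region 2 and both of Mreg), against 53.5%. The 3 regions with higher enrichment were also the 3 in which IP did not exceed input in the control pools by edgeR. Their control log2 ratios of IP to input were 0.35 for Hnrnpab, 0.63 for Sdk2 and 0.26 for Sfmbt1 region 1, against a median of 2.90 over all regions. In the control pools IP exceeded input at 6 of the 9 regions, against 96.9% of all regions, and in the knockout pools at 8, against 86.7%. Without control pool 2 the control figure was 8 of the 9, where 1197 of all 1233 regions were called. Hnrnpab (edgeR adjusted p = 0.049) and Sdk2 (edgeR adjusted p = 0.045) were then called. The exception in the knockout was Mreg region 2, with a log2 ratio of 0.61 (SE 0.42). The authors called the regions as peaks, so these shares describe the list. Without control pool 2 or knockout pool 3, 0 of the 9 had higher enrichment, and when any pool numbered 2 or 3 was left out, 0 had lower. Beside these values, 3 of the 5 regions of the listed endothelial markers had higher enrichment, and their summed IP was 225 to 341 RPM in control and 390 to 458 RPM in knockout pools; their part in the values of the 9 regions was not tested.

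**Figure D3:**
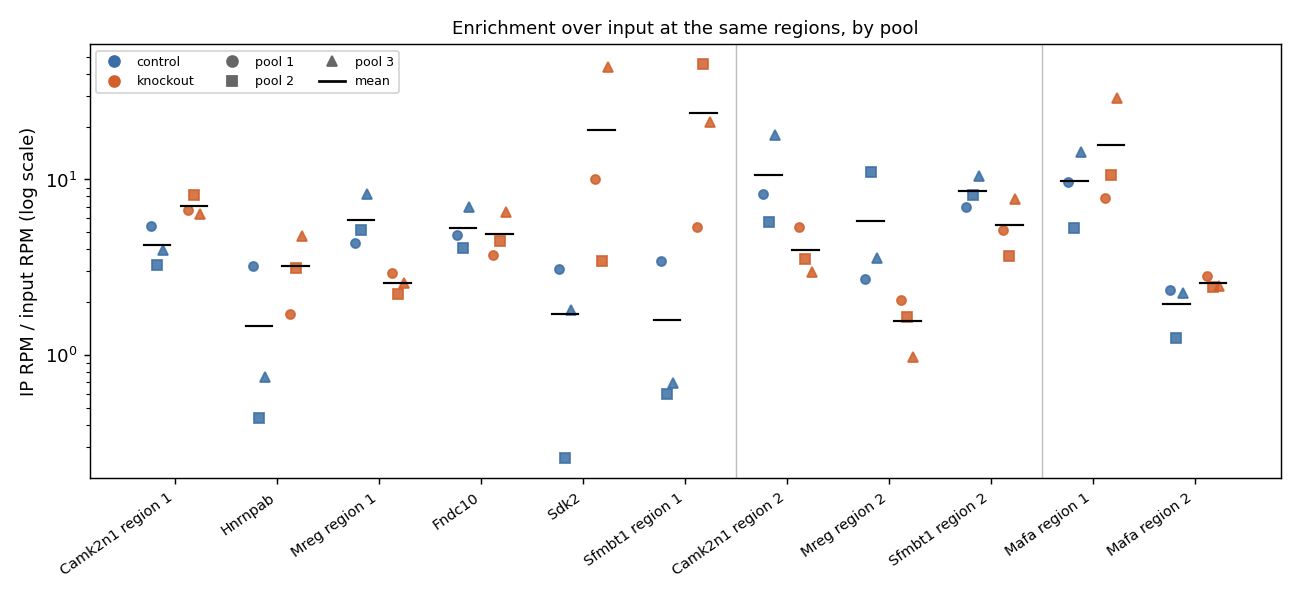
IP RPM over input RPM (log axis) per pool at the same regions, with bars for the mean of 3 pools. Control pools 2 and 3 lie below 1 at Hnrnpab and Sfmbt1 region 1, and the knockout values of 43.7 at Sdk2 and of 45.4 and 21.3 at Sfmbt1 region 1 divide by an input count of 1.

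Mafa (ENSMUSG00000047591), a transcription factor of mature β-cells, is the gene that these 6 stand beside. In its region 1 (chromosome 15, 75746532 to 75747246) input was 193, 160 and 161 RPM in control and 49.0, 25.8 and 15.6 RPM in knockout pools, with a log2 change of -2.51 (SE 0.26). In its region 2 (chromosome 15, 75745907 to 75746085) input was 13.9, 18.1 and 11.2 RPM in control and 4.15, 4.82 and 4.48 RPM in knockout pools, with a log2 change of -1.68 (SE 0.32). Input was thus called lower at 2 of 2 Mafa regions and at 1 of 2 regions each in Camk2n1, Mreg and Sfmbt1, and the difference between regions of a gene was not tested. The input log2 changes of regions 1 and 2 were -1.04 (SE 0.32) and -0.51 (SE 0.42) in Mreg. They were -1.07 (SE 0.27) and 0.32 (SE 0.46) in Camk2n1, and -2.81 (SE 0.73) and -0.26 (SE 0.31) in Sfmbt1. Neither Mafa region lost its input call in any setting, while each of the 6 member regions lost its call under at least 1. IP in Mafa region 1 fell by 2.18 on the log2 scale (SE 0.26, edgeR adjusted p = 3.7e-14) and in region 2 by 1.22 (SE 0.31, edgeR adjusted p = 0.0010), so input and IP were lower together, as at Fndc10 and Mreg region 1. The IP call of Mafa region 2 was lost with TMM and DESeq2.

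**Figure D4:**
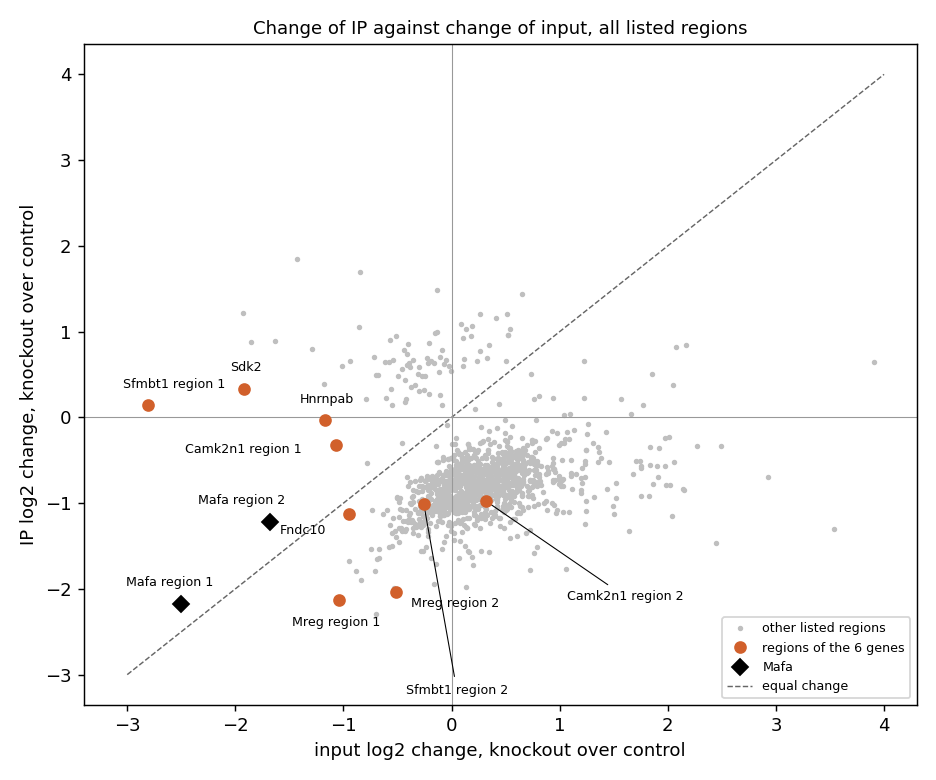
Log2 change of IP (vertical) against log2 change of input (horizontal), knockout over control, for all 1233 listed regions, with the 9 regions of the 6 genes and the 2 Mafa regions marked. The dashed line marks equal change: Fndc10 lies near it, Mreg region 1 below it, and Camk2n1 region 1, Hnrnpab, Sdk2 and Sfmbt1 region 1 lie left of it with an IP change near 0.

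Relatives of the 6 genes did not have a called input change. Beside Camk2n1, 2 of 20 other calcium and calmodulin genes were listed, the channel gene Cacna1d and the calcineurin gene Ppp3cb, whose input log2 changes were 0.63 and -0.19. The IP of Cacna1d fell by 1.12 (edgeR adjusted p = 0.0065) and that of Ppp3cb by 0.95 (edgeR adjusted p = 0.0059). Of the other hnRNP genes 4 of 27 were listed. IP fell at 2, the splicing regulators Ptbp3 (log2 change -1.17, edgeR adjusted p = 0.00027) and Rbmx (-1.07, edgeR adjusted p = 0.010), and the other 2, Syncrip and Hnrnpc, are named after their values were seen. The IP log2 change of Syncrip was 0.50 (edgeR adjusted p = 0.18) and that of Hnrnpc 0.60 (edgeR adjusted p = 0.12). Their input log2 changes were -0.68 and 0.10. Enrichment was called higher at Syncrip (1.17, edgeR adjusted p = 0.042), as at Hnrnpab, and was not called at Hnrnpc (0.49). It was called lower at Ptbp3 (-1.32) and Rbmx (-1.22). Of the other organelle transport genes 1 of 20 was listed, Exph5, an effector of Rab27 GTPases, whose IP fell by 1.18 (edgeR adjusted p = 0.00020) with an input log2 change of -0.23. Of 33 other adhesion and fibronectin type III genes 1 was listed, the axon guidance receptor gene Robo1, whose IP fell by 1.32 (edgeR adjusted p = 0.00018) with an input log2 change of -0.53. Of 33 other MBT and Polycomb genes 1 was listed, Cbx6, also named after its values were seen, with log2 changes of 0.44 in input and -0.64 in IP (edgeR adjusted p = 0.092). Among the β-cell maturity genes other than Mafa, 6 of 21 were listed with 9 regions. IP fell at all 9 of these and input was called at 0, with a median input log2 change of 0.11. Over all 1233 regions IP fell at 64.8% and input at 0.649%, with a median input log2 change of 0.22.

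The closest patterns in the list were found by the root mean square difference of log2 RPM, centred on each region's own mean, over the 12 libraries. Kcng3, which encodes a modulatory potassium channel subunit, was nearest to both Mreg regions, at 0.38 and 0.44 log2 units, with log2 changes of -0.69 in input and -2.30 in IP. The RNA nearest to Fndc10 was Gm17690 at 0.30, with -0.38 and -1.22. For Hnrnpab it was Itm2c at 0.50, for Camk2n1 region 1 Mlxip at 0.41, for Camk2n1 region 2 the choline transporter gene Slc44a1 at 0.28, and for Sfmbt1 region 2 Flrt1 at 0.21. The low-count regions had only distant neighbours, Plxnd1 at 0.95 for Sdk2 and Morf4l1 at 1.19 for Sfmbt1 region 1. Input and IP log2 changes were -0.40 and 0.63 at Itm2c, -0.54 and 0.67 at Plxnd1 and -1.86 and 0.88 at Morf4l1. They were -0.29 and -0.73 at Mlxip, 0.32 and -0.93 at Slc44a1 and -0.04 and -1.02 at Flrt1. Morf4l1 had only 3 to 7 input reads per knockout library. All regions share the same libraries and the step from input to IP, and the distances are a description.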

How the data were processed

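Among tools, the submitters' processing notes list fastp (0.19.11), HOMER (4.9.1) and BWA (0.7.12), and as build GRCm38.p6, with no roles. What called the peaks is not given in the sources used here. Per the labels' protocols, fragments were about 100 nt and reads 150 bp pairs. The authors deposited, for each region and library, the read counts and the library's total. RPM in the authors' deposited columns is the count scaled to that total, and the deposited ratio of a pool is IP RPM over input RPM, both checked against the counts. Deposited log2 fold changes refer to enrichment in the knockout over the control. The deposited log10 p and FDR, handled as scores, and the deposited p-value per peak entered no test. Whether counting used strand is not stated.

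A quasi-likelihood model of edgeR 4.0.16 (R 4.3.3) was fitted to the counts of 4 groups of 3 libraries, with total reads as library sizes, no filter and Benjamini-Hochberg adjustment over 1233 regions at 0.05. Pools are taken as separate samples from their titles, and p-values measure the spread between pools. The SE is the log2 change over the square root of the F statistic. Alternatives were TMM factors and DESeq2 1.42.0 size factors, computed within input and within IP libraries, a mean count of at least 10, halved counts, single library kinds, a replicate block and leaving out each pool. Titles and the deposited ratio of each pool tie an IP library to its input. The deviations of such pairs from the group means correlated at -0.09 to 0.07 over 1233 regions. In simulated counts at 1233 regions, 60% of input changes of log2 size 1 and 98% of size 2 were recovered, and 74% and 100% for IP. The simulation gave every region the same dispersion, 0.0643, and independent counts with no floor and no pool that stood apart. Recovery at low-count regions such as Sdk2 and Sfmbt1 region 1 was not measured separately. Intervals for low counts are exact binomial at the 95% level, on counts summed over the 3 pools. They leave out the spread between pools and take each count as an independent read, which was not tested. If mates of a pair were counted apart, or a floor was added, the intervals are too narrow. Low input counts were mostly odd (562 of 647 at 30 or less, and 11 of 14 in the 9 regions), and their origin was not tested, so a floor added before deposit is possible and a count of 1 may stand for no read.

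The members, the gene lists and the tests were chosen with earlier results of these data known. Genes named are the 6 members, Mafa, the genes of the 3 regions next outside the input threshold, the nearest gene by pattern, and from each list of relatives at most 4 genes that passed the test, by adjusted p, with those the list names first. Outside this rule, Syncrip, Hnrnpc and Cbx6 are named because so few relatives were listed, chosen after their values were seen. Python 3.11.15 was used for annotation.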

Additional observations from a re-analysis of the deposited data

How the results depend on the processing

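Input falls over all regions numbered 8, against 34 with TMM, 58 with DESeq2, 19 with the input libraries alone and 2 to 16 with 1 pool left out. Among the 9 member regions they numbered 6, against 3 with TMM and 0 to 6 with 1 pool left out. IP falls numbered 799 over all regions, against 23 with TMM, 39 with DESeq2 and 245 to 1037 with 1 pool left out, with the 4 lowest values (245 to 421) where a pool numbered 2 or 3 was left out. At the members they numbered 5, against 2 with TMM, 2 with DESeq2 and 3 to 5 with 1 pool left out, and 0 to 1 member rose. Falls of enrichment numbered 686, against 8, 19 and 91 to 976, and rises 28, against 58 with DESeq2 and 2 to 58 with 1 pool left out. At the members 2 regions had lower enrichment, against 0 with TMM, 0 with DESeq2 and 0 to 4, and 3 higher, against 1 with TMM and 0 to 4. The 1 called higher with TMM was Camk2n1 region 1, and the calls of Hnrnpab, Sdk2 and Sfmbt1 region 1 were lost there. The counts of regions with IP above input kept within 1.5 times under every setting. Single changes turned sign as follows. With TMM and DESeq2 the IP log2 change was 0.28 and 0.29 for Camk2n1 region 1 and 0.48 and 0.47 for Hnrnpab, and that of enrichment 0.78 and 0.79 for Fndc10 and 0.19 and 0.20 for Sfmbt1 region 2. The control log2 ratio of Sfmbt1 region 1 was -0.034 with TMM. With 1 pool left out, input ranged from -0.091 to 0.78 for Camk2n1 region 2 and from -0.49 to 0.023 for Sfmbt1 region 2, IP from -0.43 to 0.90 for Hnrnpab, -0.16 to 1.10 for Sdk2 and -0.30 to 0.84 for Sfmbt1 region 1, enrichment from -0.38 to 0.079 for Fndc10 and -0.16 to 0.84 for Mafa region 1, and the control ratio from -0.74 to 0.79 for Hnrnpab, -0.19 to 1.30 for Sdk2 and -0.68 to 1.15 for Sfmbt1 region 1. The cause of these shifts was not tested.

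Pools of the 2 genotypes share numbers, but same-numbered pools did not deviate together (correlations of -0.07 to 0.02 in input and -0.35 to 0.10 in IP). With the replicate block 6 regions had lower input, 4 of them members, and IP fell at 4 member regions. Under it the IP log2 change of Hnrnpab was 0.18. The input calls of Sdk2 and Fndc10 were lost with the block and with halved counts, and the IP call of Camk2n1 region 2 with the block. Low counts limit Sdk2 and Sfmbt1 region 1 most.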
